A study of Mus musculus with 6 samples.

Results

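The replication-dependent histone genes encode the histones that are made in bulk when a cell copies its DNA, and they lie side by side in a few genomic clusters. They were taken as every protein-coding row of the gene table whose symbol begins with Hist1h, Hist2h, Hist3h or Hist4h, a rule that used no measured value. This gave 67 of the 54532 genes, of which 6 encode the linker histone H1, 18 encode H2A, 18 encode H2B, 12 encode H3 and 13 encode H4. Hippocampal RNA was sequenced from 3 wild type (WT) mice and 3 mice labelled TG, which the methods describe as CRISPR/Cas9 knock-in mice made on C57BL/6N with G82R and L85P in exon 3 of Slc1a2, the gene of the astrocytic glutamate transporter GLT-1. The methods name WT littermates as the controls of this line. Ages, sexes and the zygosity of the TG mice are not given for these libraries in the sources used here. Libraries are named by group and number (WT1, TG1), each stands for 1 mouse as far as the labels show, and p-values measure only the spread between these libraries.

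Core histones H2A, H2B, H3 and H4 form the octamer around which DNA is wrapped, and H1 binds the linker between octamers. The mRNAs of the clustered genes are made mainly in S phase, have as a rule no introns, and usually end not in a poly(A) tail but just after a short stem-loop, which is bound by the stem-loop binding protein Slbp and trimmed with the help of the U7 snRNA. Most hippocampal cells are neurons and glia that no longer divide, and in such cells histones are supplied mainly by replacement genes outside the clusters, whose mRNAs are polyadenylated. Some clustered genes can also give a longer, polyadenylated transcript that reads past the stem-loop.

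The stem-loop was searched for after the stop codon of each gene's annotated transcripts as 16 bases of the form GGNNNTNNNNANNNCC on the transcript strand, with both 6-base arms complementary around a loop of 4 bases. It was present in 46 of the 67 genes, and the same form occurred anywhere in a transcript of 489 of 21884 other protein-coding genes (2.23%), where a match is a description of letters and no more. It lay 21 to 58 bases after the stop codon, with a median of 31. There were 8 distinct versions. The most frequent, held by 26 genes, occurred in genes of H1, H2A, H2B and H3 and in no H4 gene, whereas a version with a different base pair in the stem was held by 7 genes, all of H4. The lines below give the element with 5 bases on either side in the most abundant stem-loop gene of each class, and in Hist1h4i, Hist2h4 and Hist1h2bb, whose values are compared between the groups further on and which hold other versions of it (capitals mark the stem-loop; GRCm38, GENCODE vM21 transcripts, 5′ to 3′).
Hist3h2ba (H2B, chr11:58949344-58949369, plus strand): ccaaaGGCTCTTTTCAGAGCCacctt
Hist1h1c (H1, chr13:23739507-23739532, plus strand): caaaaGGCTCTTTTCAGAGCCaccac
Hist3h2a (H2A, chr11:58955167-58955192, plus strand): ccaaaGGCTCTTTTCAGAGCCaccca
Hist2h3c2 (H3, chr3:96238480-96238505, minus strand): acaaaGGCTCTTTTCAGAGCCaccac
Hist1h4h (H4, chr13:23531453-23531478, plus strand): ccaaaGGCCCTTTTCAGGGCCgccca
Hist1h4i (H4, chr13:22040961-22040986, minus strand): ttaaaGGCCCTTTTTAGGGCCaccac
Hist2h4 (H4, chr3:96262934-96262959, minus strand): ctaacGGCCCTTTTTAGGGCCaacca
Hist1h2bb (H2B, chr13:23747198-23747223, plus strand): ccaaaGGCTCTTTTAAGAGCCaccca

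Levels are given as FPKM, the reads of a gene scaled to its length and to the size of the library. A ranking between genes depends on the annotated length. For example, Hist1h2be had 0.743 FPKM from 350 reads over 4446 bases, and Hist1h4k had 3.10 FPKM from 102 reads over 312 bases. Shared sequence and the lack of a poly(A) tail can also bear on such rankings, and their part was not tested. The histone genes took up a very small part of the reads, with 1189 to 2061 reads per library, or 0.00738% to 0.0110% of the 16081281 to 18751057 reads on genes. This is a share of the sequenced reads, and the share of histone mRNA in the tissue was not measured. No read was found for 16 of the 67 genes in any library, 20 had reads in all 6 libraries, and 9 had a mean FPKM of at least 1. Of the 9683 histone reads in all, 8066 fell on 5 genes, Hist3h2ba, Hist1h2bc, Hist1h1c, Hist3h2a and Hist2h2be, which held 80.6% to 85.4% of the histone reads of each library. The large cluster on chromosome 13 (54 genes, chr13:21715763-23934851) held 54.6% of the summed mean FPKM, the 2 genes on chromosome 11 held 38.3%, the 10 genes on chromosome 3 held 7.05%, and Hist4h4, alone on chromosome 6, held 0.0674%.

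Hist3h2ba, a single-exon H2B gene at chr11:58948920-58949533, was the most abundant, with 27.0, 29.0 and 35.8 FPKM in the WT mice and 24.1, 22.7 and 23.1 FPKM in the TG mice (replicates 1, 2 and 3 in that order here and throughout). The H2B gene Hist1h2bc, whose annotated transcript has 2 exons (chr13:23684199-23692908), followed with 17.0, 14.9 and 20.9 FPKM in WT mice and 12.5, 23.0 and 18.7 FPKM in TG mice. Next came Hist1h1c, a linker histone gene, with 12.2, 12.2 and 15.7 FPKM in WT mice and 10.2, 14.98 and 10.2 FPKM in TG mice. The first of these genes thus had all TG libraries below all WT libraries, whereas the groups overlapped for the other two. Hist3h2a, the leading H2A gene, had 4.26, 4.88 and 5.50 FPKM in WT mice and 3.59, 4.44 and 5.21 FPKM in TG mice. For the H2B gene Hist2h2be the values were 3.10, 3.99 and 4.04 FPKM in WT mice and 3.14, 4.003 and 3.49 FPKM in TG mice. Both sets of values overlapped. Exons of Hist3h2a share 708 bases with Trim17 on the same strand, a gene with a mean FPKM of 1.54. Reads there could have been assigned to either gene or dropped, and how they were treated is not stated.

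**Figure D1:**
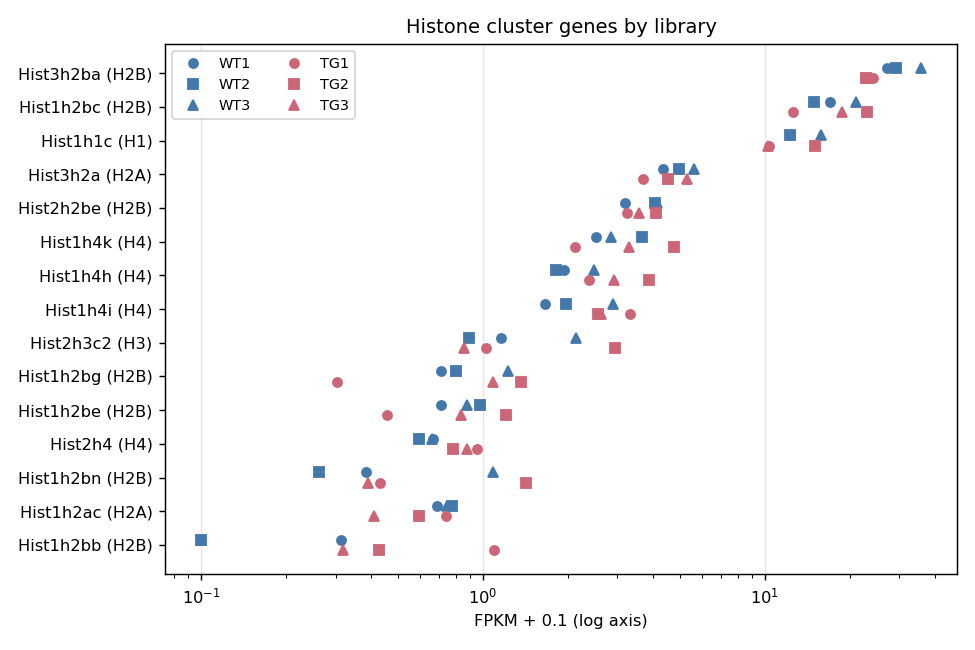
FPKM + 0.1 (log axis) of the 15 histone genes described by name, in WT libraries (blue) and TG libraries (red), where circles, squares and triangles are libraries 1, 2 and 3. Hist3h2ba reached 22.7 to 24.1 FPKM in TG mice and 27.0 to 35.8 FPKM in WT mice, while most other genes had overlapping groups.

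How far the annotated transcript runs past the stem-loop differed between the abundant and the rare genes. In 23 genes the annotation goes on for more than 100 bases after the stem-loop, and 22 of these had reads, 6123 in all, with a median FPKM of 0.277. In another 23 genes it stops within 100 bases of the stem-loop, and 14 of these had reads, 202 in all, with a median of 0.0403. For 15 genes the model ends at the stop codon or within 25 bases of it, 10 of them had reads, 151 in all, and their median was 0.0251. Only 6 genes have a longer sequence after the stop codon without a stem-loop in it. Of these, Hist1h2bc and Hist2h2be gave nearly all of that group's 3207 reads. The models of Hist2h3b and Hist1h1a have only 37 and 48 bases after the stop codon, so a stem-loop beyond their annotated end would be missed. Hist3h2ba, Hist1h1c and Hist3h2a are all of the long kind, with 169, 840 and 1643 bases after the stem-loop. The polyadenylation signal AATAAA lay in the last 40 bases of an annotated transcript of 14 histone genes (20.9%), and these held 6066 of the histone reads. It did so in 39.3% of the 58686 other protein-coding transcripts. The first share counts genes with any such transcript and the second single transcripts, so they are not alike. The 15 models that end at the stop codon also have little or no sequence after it in which to show the signal. The files give 1 value per gene, so reads before and after the stem-loop cannot be told apart. The medians differ between groups of genes that are not independent replicates, and they were not tested. Genes whose sequence mostly recurs in other genes (described below) were more frequent where the model stops soon after the stem-loop than where it runs on. Read totals, unlike FPKM, are not scaled to gene length. The parts of shared sequence and model length in the contrast between these groups were not tested.

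**Figure D2:**
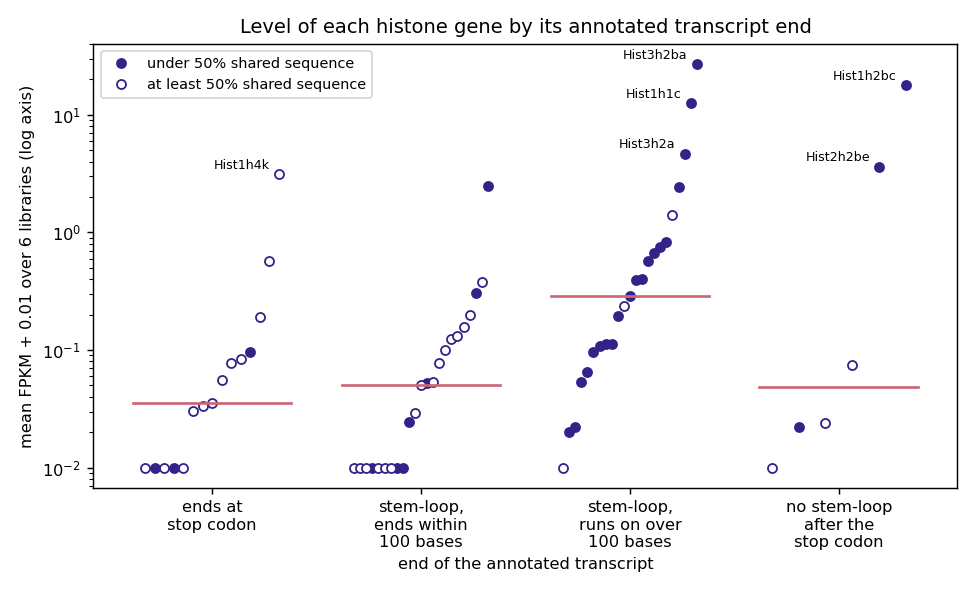
Mean FPKM + 0.01 over 6 libraries (log axis) of each of the 67 histone genes by the end of its annotated transcript, with the median of each group as a red line and open circles for genes with at least 50% shared sequence. The median was 0.277 where the model runs on over 100 bases and 0.0403 where it ends sooner. Open circles were more frequent in the group that ends sooner after the stem-loop.

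Near-identical copies and overlapping genes limit what can be said of the rare genes. In 34 of the 67 genes at least 50% of the 50-base stretches of the transcripts occur in a transcript of another gene, and these held 392 reads, with 11 of the 34 at 0. The other 33 held 9291 reads (96.0%), with 5 at 0. All 5 genes without a single stretch of their own, Hist2h2aa1, Hist2h2aa2, Hist2h3c1, Hist2h3b and Hist2h2bb, were at 0 in all libraries. Each of the 5 is covered over its full length by exons of another gene at the same place. Stretches were matched on either strand, so this overlap alone makes all of them shared. The covering genes had mean FPKM of 0.713 (Gm20632), 0.389 (Gm20633), 0.342 (Gm20628) and 0.00305 (Gm20634). Reads that match several genes, or fall where genes overlap, leave no trace in such genes if the counting drops them. How the counting treated these reads is not stated, so a 0 there does not bear on expression. For the 16 genes at 0, 3 reads in a library would have given an FPKM between 0.0878 and 0.498, a limit from counting error only.

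Many H2A and H2B genes lie head to head on opposite strands and share the DNA between their starts. There were 13 such pairs of histone genes within 1000 bases, 12 of them an H2A with an H2B gene. In the pairs with the most reads, the H2B gene was far above its H2A neighbour. Hist1h2bc had a mean FPKM of 17.8 and Hist1h2ac, whose start is 251 bases away, had 0.558, which is 31.9 times lower per length. The pair Hist2h2be and Hist2h2ac differed by 31.5 times (3.63 against 0.115 FPKM), but the lower value rests on 6 reads. Hist1h2bg and Hist1h2ae differed by 7.97 times, with 54 and 7 reads. Both genes were at 0 in 2 pairs and 1 gene was at 0 in 3 pairs, and most of these genes share sequence with other genes. The pair with the most reads is shown by the RefSeq promoter of Hist1h2ac (H2ac6 in RefSeq, GRCm38.p6, chr13:23683910-23684209, minus strand), which covers the region up to the start of Hist1h2bc. Capitals mark TATAAA and CCAAT on either strand.
Hist1h2ac promoter: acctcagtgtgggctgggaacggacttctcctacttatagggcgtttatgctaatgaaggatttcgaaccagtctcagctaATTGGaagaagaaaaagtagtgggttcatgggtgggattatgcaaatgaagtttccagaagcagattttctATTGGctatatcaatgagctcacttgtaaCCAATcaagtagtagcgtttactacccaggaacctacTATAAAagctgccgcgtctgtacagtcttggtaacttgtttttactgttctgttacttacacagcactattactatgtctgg
Promoters of 250 bases before to 50 bases after the start were found for 61 of the 67 genes. TATAAA occurred in 35 of them (57.4%) against 13.5% of 32788 promoters, and CCAAT in 52 (85.2%) against 37.3%. Both occurred in 29 (47.5%) against 5.23%, counting both strands.

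**Figure D3:**
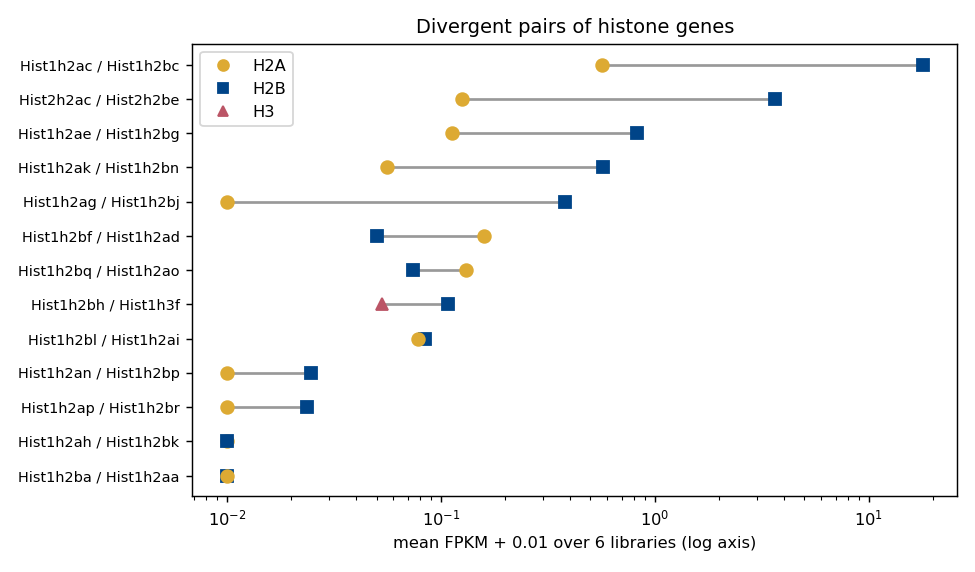
Mean FPKM + 0.01 over 6 libraries (log axis) of both genes of each of the 13 divergent pairs, with H2A as circles, H2B as squares and H3 as a triangle. Hist1h2bc lay at 17.8 and its neighbour Hist1h2ac at 0.558 FPKM.

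Summed over all 67 genes, the histone level was 76.8, 80.2 and 101 FPKM in WT mice and 69.0, 92.7 and 75.4 FPKM in TG mice. The means were 86.0 ± 13.0 (SD, n = 3) and 79.0 ± 12.3 (SD, n = 3), a log2 ratio of TG to WT of -0.12, and the groups overlapped. The ratio was 0.0089 without WT3 and -0.25 without TG2, and it was 0.010 without Hist3h2ba, which held 32.7% of the sum. H2B made up most of the sum, with 54.7 ± 8.60 FPKM in WT mice and 48.3 ± 5.83 FPKM in TG mice (SD, n = 3 each). H1 came to 13.9 ± 1.96 and 12.3 ± 3.05 FPKM, 96.1% of it from Hist1h1c. H4 was the only class with a higher mean in TG mice, 8.82 ± 1.29 against 10.9 ± 2.08 FPKM, a log2 ratio of 0.31 that was 0.14 without TG2 and 0.20 without WT1. H2A came to 6.32 ± 0.957 and 5.42 ± 0.552 FPKM. The sum of H3 was the smallest, 2.27 ± 0.588 and 2.08 ± 1.38 FPKM, and its log2 ratio of -0.13 became -0.82 without TG2 and positive without WT3 (0.10), TG1 (0.095) or TG3 (0.15). The ranges of both groups overlapped in all 5 classes. In bulk tissue, fewer cells of a type and less RNA per cell cannot be told apart.

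**Figure D4:**
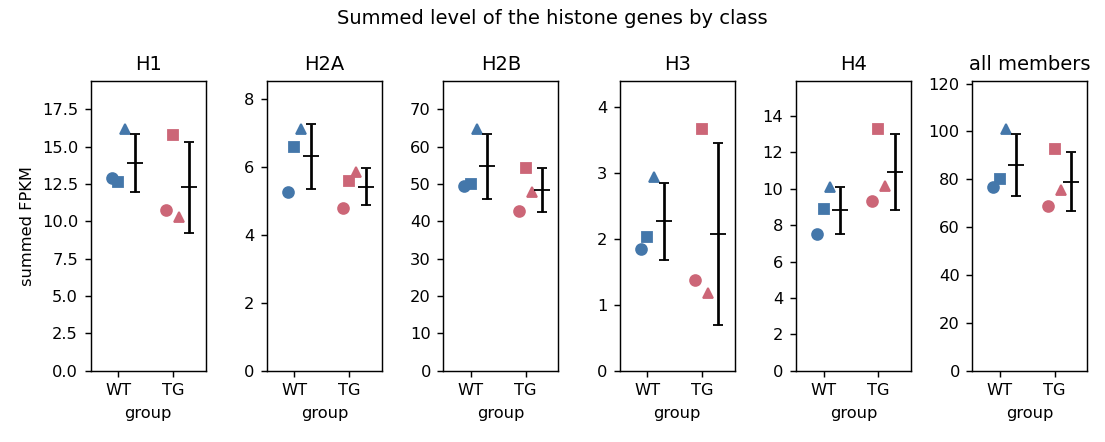
Summed FPKM of the histone genes of each class and of all 67 genes by library (circles, squares and triangles are libraries 1, 2 and 3), with mean ± SD (n = 3) beside the points and each axis starting at 0. WT and TG libraries overlapped in every panel, for example 76.8 to 101 and 69.0 to 92.7 FPKM for all genes.

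The comparison of TG with WT mice was tested with limma on log2(FPKM + 0.1) over 20952 genes whose mean FPKM reached 0.1, and p-values were adjusted by Benjamini-Hochberg. Of the 67 histone genes, 28 passed this filter, and another 23 had reads but no more than 6 in any library. At an adjusted p under 0.05, 2 of the 20952 genes (0.00955%) and 0 histone genes were called, and the smallest adjusted p of a histone gene was 0.786. At an unadjusted p under 0.05, 2 of the 28 histone genes were higher in TG mice, where 3.13% of all genes were, and 1 was lower, where 2.78% were. Every TG library was above every WT library for 2 histone genes (Hist1h2bb and Hist2h4), against 6.35% of all genes, and below for 1 (Hist3h2ba), against 5.71%. Hist1h2bb, counted as higher and as not overlapping, passed the filter only through its TG values (mean FPKM 0.0710 in WT and 0.514 in TG mice). Its place in these counts is therefore not independent of the filter. The median log2 difference was -0.0046 over the 28 genes, 14 positive and 14 negative, and -0.0020 over all genes tested. Libraries of the same group differed by more than the groups did. The median of the 28 genes relative to the WT mean was -0.21, 0.03 and 0.24 in WT mice and -0.28, 0.22 and -0.05 in TG mice on the log2 scale. TG2 had the highest value for 10 of the 28 genes, and without it the median log2 difference was -0.25.

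**Figure D5:**
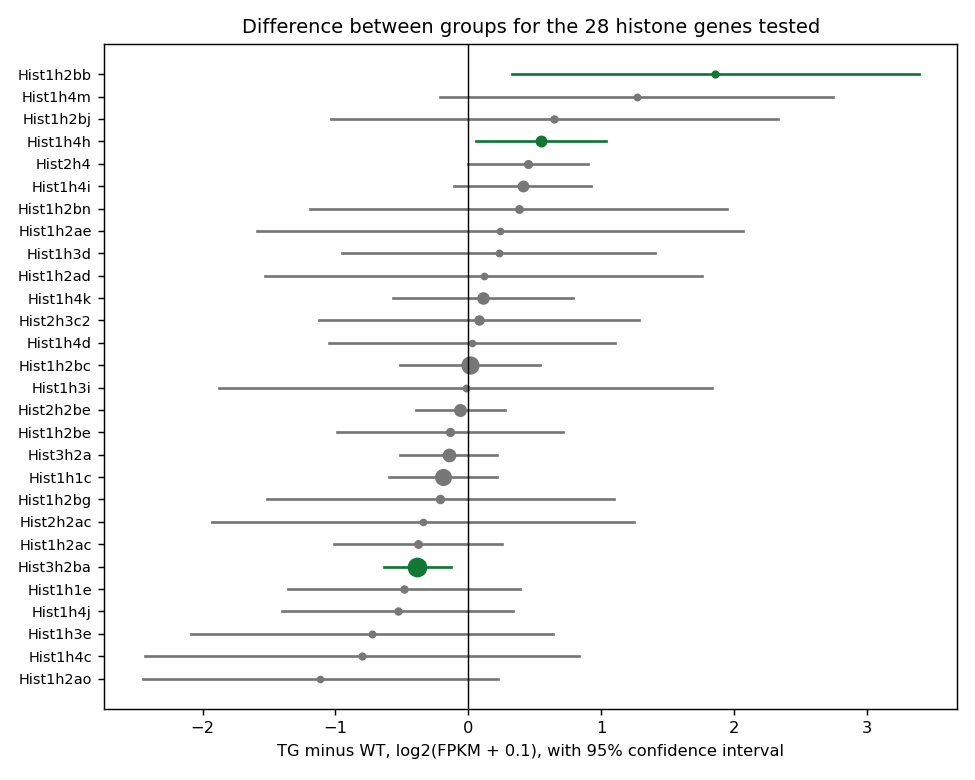
Difference TG minus WT on the log2(FPKM + 0.1) scale with its 95% confidence interval for the 28 histone genes tested, larger points for more abundant genes and green for an unadjusted p under 0.05. The 3 green genes are Hist1h2bb and Hist1h4h (higher) and Hist3h2ba (lower), and none has an adjusted p under 0.05.

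Among the H2B genes, Hist3h2ba, the most abundant histone gene, was the lower one. Its difference was -0.38 on the log2(FPKM + 0.1) scale (SE 0.108, 3 against 3 libraries), which passed an unadjusted limma threshold of 0.05 but not the adjusted one (adjusted p = 0.786). It rests on 288 to 412 reads in WT libraries and 234 to 256 in TG libraries, and 22.1% of its sequence stretches are shared. Genes of the choroid plexus, the vascular fold in the ventricles whose epithelium makes cerebrospinal fluid, were high in TG1 and TG2. All 21 of its markers had a positive difference, and 11 passed an unadjusted p of 0.05, beside 3.13% of all genes that were higher. None was at 0 in all libraries. Their summed level was 87.6 to 122 FPKM in WT mice and 1374, 4288 and 99.3 FPKM in TG1 to TG3. Hist3h2ba had 24.1, 22.7 and 23.1 FPKM in these 3 libraries. With the choroid plexus score, the mean log2 value of these markers, as a covariate the difference was -0.35, and with TG3 as the lone TG library it was -0.40, and in both fits it missed the unadjusted threshold. The part of choroid plexus content in the lower value was not tested.

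Hist1h2bb was the H2B gene on the other side, with 2, 0 and 0 reads in WT mice and 8, 3 and 2 reads in TG mice. Its FPKM was 0.213, 0 and 0 in WT mice and 0.995, 0.329 and 0.218 in TG mice. The groups did not overlap in FPKM, but WT1 and TG3 both had 2 reads and lay apart only by the size of their libraries (log2 difference 1.86, SE 0.652, adjusted p = 0.786). With WT2 and WT3 at 0, the size of the difference depended on the pseudocount, with 0.47 at a pseudocount of 1 and 3.92 at 0.01. The unadjusted threshold was missed without TG1 (difference 1.34), WT2 (1.59) or WT3 (1.59), with the choroid plexus score as a covariate (1.36) and with TG3 as the lone TG library (1.12). Of the remaining tested H2B genes, none had an unadjusted p under 0.05. Hist1h2bc differed by 0.01 (95% confidence interval -0.52 to 0.54) and Hist2h2be by -0.06 (-0.40 to 0.27). Hist1h2bg had 0.613, 0.701 and 1.12 FPKM in WT mice and 0.205, 1.26 and 0.986 FPKM in TG mice. For Hist1h2be the values were 0.608, 0.877 and 0.781 FPKM in WT mice and 0.355, 1.10 and 0.735 FPKM in TG mice, and its exons share 450 bases with Hist1h1e on the same strand. Hist1h2bn had 1 to 9 reads and 0.162 to 1.32 FPKM, and 86.4% of its sequence stretches are shared. In these 3 genes TG1 and TG2 lay apart by more than the group means did.

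H4 genes had 6 positive and 2 negative differences of 8 tested, with a median of 0.26. Hist1h4m and Hist1h4d, both positive, passed the filter only through their TG values (mean FPKM 0.0886 and 0.0990 in WT mice, 0.289 and 0.104 in TG mice). Hist1h4h had 1.84, 1.71 and 2.39 FPKM in WT mice and 2.29, 3.80 and 2.83 FPKM in TG mice, from 13 to 32 reads. The lowest TG library lay below the highest WT library, and the difference was 0.55 (SE 0.208, adjusted p = 0.786). It missed the unadjusted threshold without WT1 (0.50), WT2 (0.45), TG2 (0.36) or TG3 (0.57), with the choroid plexus score as a covariate (0.38), with TG3 as the lone TG library (0.51), with voom on recovered reads (0.56) and without the variance trend (0.55). Hist2h4, with 0.564, 0.494 and 0.557 FPKM in WT mice and 0.853, 0.684 and 0.781 FPKM in TG mice, had every TG library above every WT library, but it missed the unadjusted threshold (difference 0.45, SE 0.194), which it passed without TG2 (0.52), without the variance trend (0.45), over protein-coding genes alone (0.45) and with a pseudocount of 1 (0.20). Only 1.01% of its sequence stretches are shared, and it has 13 to 23 reads per library. Hist1h4i had 1.56, 1.87 and 2.79 FPKM in WT mice and 3.22, 2.46 and 2.51 FPKM in TG mice, and the groups overlapped (difference 0.41, SE 0.220). Without WT3 the difference was 0.63 and passed the unadjusted threshold. Hist1h4k, the H4 gene with the highest FPKM, had 2.43, 3.57 and 2.74 in WT mice and 2.03, 4.65 and 3.19 in TG mice. Its annotated model of 312 bases ends at the stop codon and 71.5% of its stretches are shared, so this level rests on 10 to 26 reads. Differences of the other 4 tested H4 genes, with at most 10 reads in any library, ran from -0.80 (Hist1h4c) to 1.27 (Hist1h4m), and none passed the unadjusted threshold.

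In the other classes no gene passed an unadjusted p of 0.05. Both tested H1 genes had negative differences, -0.19 for Hist1h1c (SE 0.174) and -0.49 for Hist1h1e (SE 0.372). Leaving out 1 library moved the difference of Hist1h1c between -0.07 (without WT3) and -0.38 (without TG2), and the latter passed the unadjusted threshold. Hist1h1d, Hist1h1a, Hist1h1b and the testis H1 gene Hist1h1t had at most 5 reads in any library. Of 6 tested H2A genes 4 were negative, and Hist3h2a differed by -0.15 (95% confidence interval -0.52 to 0.22). Hist1h2ac had 0.588, 0.673 and 0.646 FPKM in WT mice and 0.637, 0.494 and 0.312 FPKM in TG mice, a difference of -0.38 (95% confidence interval -1.01 to 0.25). With TG3 as the lone TG library the difference was -0.83 and passed the unadjusted threshold. Among the 4 tested H3 genes, Hist2h3c2 was the most abundant, with 1.06, 0.789 and 2.04 FPKM in WT mice and 0.929, 2.84 and 0.760 FPKM in TG mice. Its value ranged as widely within a group as between groups (difference 0.08, 95% confidence interval -1.13 to 1.28). It held 64.6% of the summed FPKM of H3, and 63.5% of its sequence stretches are shared.

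Genes that act on histone mRNA and on histones were counted in the same fit, where 3.13% of all genes were higher and 2.78% lower at an unadjusted p of 0.05. Of 20 tested genes for the transcription and processing of histone mRNA, 1 was higher at an unadjusted p of 0.05 and 0 lower, with a median difference of 0.03. That gene was Upf1, a helicase that also takes part in histone mRNA decay, with 16.6, 17.7 and 16.1 FPKM in WT mice and 18.9, 18.7 and 19.2 FPKM in TG mice (difference 0.17, adjusted p = 0.786, limma). Slbp had 3.28, 2.65 and 3.71 FPKM in WT mice and 2.78, 3.19 and 3.05 FPKM in TG mice, and Npat, the coactivator of histone gene transcription, had 3.84 to 4.69 and 4.02 to 4.55 FPKM. The most abundant of the list was the cap-binding gene Ncbp2, with 21.3 to 26.9 and 21.6 to 22.8 FPKM. Among 29 tested S phase and proliferation genes, 1 was higher (Mcm5, a subunit of the replicative helicase, 0.776 to 1.05 and 1.18 to 1.24 FPKM) and 1 lower (Birc5, a mitotic gene, 0.223 to 0.328 and 0.0164 to 0.149 FPKM), with a median of -0.02. The proliferation marker Mki67 stayed between 0.145 and 0.265 FPKM in all libraries, and Pcna, the sliding clamp of DNA polymerase, was the most abundant with 16.4 to 19.0 FPKM. Of 20 tested histone chaperones 0 passed the threshold, and their median was -0.05 (Rbbp7, the most abundant, 44.8 to 56.8 and 43.3 to 44.7 FPKM; Hat1, with the smallest p, 4.68 to 5.43 and 4.12 to 4.72 FPKM).

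Replacement histone genes had far higher summed levels in these libraries than the clustered ones, 290, 279 and 313 FPKM in WT mice and 242, 257 and 272 FPKM in TG mice. Clustered and replacement mRNAs usually differ in their tail, and the part of the tail in this contrast was not tested. WT and TG libraries did not overlap in the sum of the replacement genes. Of the 11 replacement genes tested, 3 were lower at an unadjusted p of 0.05 and 0 higher, beside 2.78% and 3.13% of all genes. Differences were negative for 10 of the 11, beside 10554 of all 20952 genes tested, and the median was -0.12. The most abundant was H3f3b, an H3.3 gene, with 62.9, 64.5 and 74.3 FPKM in WT mice and 45.7, 55.0 and 55.6 FPKM in TG mice (difference -0.37, SE 0.104, adjusted p = 0.786, limma). H3f3a, which encodes the same H3.3 protein, had 21.5, 19.8 and 21.6 FPKM in WT mice and 15.5, 19.6 and 18.2 FPKM in TG mice (difference -0.24). H2afj, an H2A variant gene, had 23.7, 23.2 and 26.2 FPKM in WT mice and 20.5, 20.8 and 21.7 FPKM in TG mice (difference -0.21). For all 3, every TG library lay below every WT library, as it did for H1f0, a replacement linker histone that missed the unadjusted threshold (difference -0.12). These were 4 of the 11 genes, beside 5.71% of all genes. With the choroid plexus score as a covariate, and with TG3 as the lone TG library, 0 of the 11 were lower at this threshold, and the medians were -0.08 and -0.07.

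Small RNAs without a poly(A) tail were nearly absent. Of 16 such genes, 6 were at 0 in all libraries and 7 could be tested, 0 passed, and the sums were 2.55, 3.48 and 3.03 FPKM in WT mice and 3.67, 2.16 and 5.08 FPKM in TG mice. Rn7sk, the most abundant, had 0.506 to 1.84 FPKM. How far these RNAs and tail-less histone mRNAs entered the libraries was not tested. Slc1a2 itself had 202, 199.5 and 177 FPKM in WT mice and 222, 207 and 217 FPKM in TG mice (adjusted p = 0.789), and gene levels do not show the 2 amino acid changes. Hippocampal neuron genes, which check the tissue label, had sums of 1413 to 1510 FPKM in WT mice and 1410 to 1596 FPKM in TG mice (Camk2a the most abundant). Oligodendrocyte genes had 7 negative differences of 7 (median -0.30, 1 lower, Opalin). Their sums were 759, 715 and 596 FPKM in WT mice and 469, 647 and 699 FPKM in TG mice, so that TG2 and TG3 lay within the WT range. Relative to the WT mean, their median was 0.16, 0.05 and -0.21 in WT mice and -0.66, -0.19 and -0.05 in TG mice on the log2 scale. The part of oligodendrocyte genes in the histone values was not tested. At an unadjusted p of 0.05, 3.13% of all genes were higher and 2.78% lower. Beside these shares, 1 of 9 microglial genes was higher (Csf1r), 1 of 5 endothelial genes (Flt1) and 0 of 7 astrocyte genes. Of 5 oligodendrocyte precursor genes 1 was higher (Gpr17) and 1 lower (Olig2), and 1 of 11 neuron genes was lower (Calb1). Of 5 tested red blood cell and 4 tested T and B cell genes 0 passed.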

How the data were processed

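Hippocampal RNA of 3 WT and 3 TG mice was used. Per the study's methods, the authors counted reads with HTSeq, divided them by gene length and library size, and deposited FPKM with 1 column per library. Aligner and treatment of multi-mapped reads are not given in the sources used here, and the submitters' processing notes name GRCm38 and mm10. The methods name Trizol and a NEBNext Ultra kit, the labels an RNeasy and a SMARTer mRNA kit. FPKM times gene length gave whole reads for 100% of values (tolerance 0.05). For a 1 kb gene, 3 reads correspond to 0.160 to 0.190 FPKM, which covers counting error only.

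limma 3.58.1 (R 4.3.3; lmFit, eBayes with a variance trend) was run on log2(FPKM + 0.1) for genes whose mean FPKM reached 0.1, without block or covariate, and p-values were adjusted by Benjamini-Hochberg and called under 0.05. It was tested on simulated data. Stem-loops, shared 50-base stretches and exons came from GENCODE vM21, whose coordinates matched for all 67 genes, and promoters from RefSeq. Scripts also ran in Python 3.11.15. Described by name were histone genes whose mean FPKM reached 0.5, the most abundant of each class, and those with an unadjusted p under 0.05 or groups that did not overlap, and of the other gene lists the most abundant gene and that with the smallest p. Other genes were named after their values were seen. Members and lists were chosen with earlier results of these data known. Alternatives covered pseudocount, filter, scaling, voom, variance trend, biotype, block, a choroid plexus covariate and left-out libraries. Replacement histones were recomputed under these alternatives after seeing the data.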

Additional observations from a re-analysis of the deposited data

How the results depend on the processing

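The number of genes with an adjusted p under 0.05, 2 of 20952, was 0 with a pseudocount of 0.01 or 1, without a filter, with voom on recovered reads, over protein-coding genes alone, with the choroid plexus score and with TG3 alone, 1 at a mean FPKM of at least 1, 9 without the variance trend, and 0 to 6 when 1 library was left out (6 without TG1). With the choroid plexus score, 328 genes were higher and 375 lower at an unadjusted p of 0.05. Of the histone genes, the 2 higher became 1 at a mean FPKM of at least 1, 1 with voom, 4 over protein-coding genes, 0 with the choroid plexus score, 0 with TG3 alone and 0 to 3 when 1 library was left out. The 1 lower became 2 over protein-coding genes, 0 with the choroid plexus score, 2 with TG3 alone and 1 to 3 when 1 library was left out. The median log2 difference ran from -0.25 (without TG2) to 0.13 when 1 library was left out. Without the most abundant gene of the class, the log2 ratio was -0.53 for H2A, 0.059 for H2B and -0.78 for H3. In this setting it was -0.18 for H1 and 0.37 for H4. The ratio of H3 ran from -0.82 (without TG2) to 0.15 when 1 library was left out. The cause of these shifts was not tested.

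Differences changed sign in 8 of the 15 named histone genes, none with an unadjusted p under 0.05 on either side. When 1 library was left out they ran from -0.18 to 0.25 for Hist1h2bc, -0.18 to 0.020 for Hist2h2be, -0.17 to 0.41 for Hist1h4k, -0.47 to 0.44 for Hist2h3c2, -0.63 to 0.46 for Hist1h2bg, -0.46 to 0.24 for Hist1h2be and -0.22 to 0.97 for Hist1h2bn. With the choroid plexus score they were -0.074 for Hist1h2bc, 0.031 for Hist3h2a, -0.070 for Hist1h4k, -0.78 for Hist2h3c2 and -0.48 for Hist1h2bn, and with TG3 alone 0.10 for Hist3h2a, -0.60 for Hist2h3c2, 0.29 for Hist1h2bg and -0.29 for Hist1h2bn. Of 249 values of named histone genes under the alternatives, 202 kept their direction and side of the threshold. The number of replacement histones lower at an unadjusted p of 0.05, 3 of 11, was 1 without the variance trend and 2 to 4 when 1 library was left out.

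Same-numbered libraries deviated together with correlations of 0.0109, 0.0516 and 0.0334 over 13325 genes, so the numbers were not taken as pairs. Each TG library correlated best with the WT library of its own number, but WT1 correlated more with TG3 (0.0192) than with TG1. The replicate block gave 0 adjusted calls over all genes. At an unadjusted p of 0.05 it gave 634 higher and 610 lower genes in place of 656 and 582, and the calls of the 15 named histone genes and the counts of histone and replacement histone genes stayed as they were. With TG3 alone, its spread is taken to be that of the WT libraries. Depth limits the rare genes, since 37 of the 51 histone genes with reads had at most 10 in any library.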

Other observations

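Histone pseudogenes of the same naming are not among the 67 genes. Hist3h2bb-ps, a processed pseudogene at chr11:58954048-58954512 in the chromosome 11 cluster, had 0, 0.399 and 1.15 FPKM in WT mice and 0.408, 0.360 and 0.238 FPKM in TG mice, from 0 to 10 reads. Hist1h2aj had 2 reads in WT2 and 0 in the other libraries, and Hist1h2al had 0 in all.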
